A study of Mus musculus with 2 samples.

Results

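Cdk5, its activators Cdk5r1 and Cdk5r2, and the PCTAIRE kinases Cdk16, Cdk17 and Cdk18 were followed in the cerebral cortex of newborn mice with and without a Cre transgene that deletes Mrtfb. These 6 genes were chosen by name, together with every probe set that the platform annotation assigns to 1 of them alone. They are 6 of the 18193 genes named on the array, and they are read by 17 probe sets. A probe set is a group of short probes on an Affymetrix array that together give 1 signal for a transcript.

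The samples were 2 pools of cortical RNA, each made from 3 mice and hybridised to 1 array. One pool, labelled control, carried MRTFA-/-;MRTF-BFlox/Flox, meaning null alleles of Mrtfa and floxed, undeleted alleles of Mrtfb. The other, labelled double knockout, carried MRTF-A-/-;MRTF-BF/F;GFAP-Cre, the same alleles plus a transgene for Cre recombinase that, going by its name, is driven from the GFAP promoter. Both groups therefore lack intact Mrtfa by label, and no wild-type mice were compared. Cortical cells keep Mrtfb where the transgene was active neither in them nor in the cells they came from. The control pool had no Cre, so an effect of Cre itself cannot be told apart from an effect of Mrtfb deletion. Both pools are labelled postnatal day 0, but the description of the double knockout sample gives postnatal day 1, so a 1-day difference in age cannot be told apart from genotype either. Each group has a single array, so nothing was replicated, no test was made, and pooling hides how the animals differed. In whole cortex, fewer cells of a type and less RNA per cell cannot be told apart.

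Cdk5 is a cyclin-dependent kinase that works mainly in neurons that no longer divide. It is switched on not by a cyclin but by p35, the product of Cdk5r1, or by the related p39, the product of Cdk5r2. In the developing cortex Cdk5 with p35 is needed for newborn neurons to migrate past older ones, and it phosphorylates proteins that bind microtubules and actin. The PCTAIRE kinases are close relatives of Cdk5, named after a stretch of amino acids in the helix that contacts the activating partner, and Cdk16 is activated by cyclin Y and has been described as a Cdk5 substrate. The MRTF proteins work together with the transcription factor SRF to switch on its targets. By its labels, the comparison asks what changes in the cortex when Mrtfb is deleted in mice that already lack Mrtfa.

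All values below are MAS5 signals as deposited, in arbitrary units, and all differences are the knockout-labelled pool minus the control-labelled pool on the log2 scale, after centring. Signals under 178.9, the median over both arrays and here called the floor, were treated as background, since detection calls were not used here. A probe set is called bright where it reached the floor in both pools. Of the 17 probe sets, 12 were bright, 1 reached the floor in the control-labelled pool alone, and 4 in neither. Through them 5 of the 6 genes were measured. A gene's difference was taken from its brightest probe set, and the mean over all its bright probe sets is given beside it. The error yardstick is the spread between probe sets of the same gene, which was 0.18 log2 (SD) pooled over 4858 genes. It covers differences between probes and none between animals.

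The targeted genes, with Srf and Myocd beside them, read as follows. Mrtfb had a signal of 3358.9 in the control-labelled pool and of 2481.8 in the knockout-labelled pool, 1.36-fold lower, and its 2 probe sets had a mean difference of -0.33 ± 0.15 log2 (SD). Mrtfa, with a single probe set, read 601.6 and 262.4, 2.30-fold lower, although the labels give it as null in both pools. Only 5 of the 11636 measured genes, Mrtfa among them, were at least 2-fold lower. Whether the pools differ in Mrtfb alone was not tested. Srf read 582.3 and 471.1, with a mean of -0.28 ± 0.049 (SD, 2 probe sets), and Myocd stayed under the floor on both arrays. The position of these probe sets relative to the deleted exons was not analysed here. The median signals of all probe sets were 185.7 and 172.6. Of the 10 cortical neuron markers listed, 8 were analysed and 8 of 8 were bright, 6 higher and 2 lower in the knockout-labelled pool with a median of 0.056. The lowest of them was Slc17a7, a vesicular glutamate transporter, which read 4497.8 and 3079.7, 1.46-fold lower.

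**Figure D1:**
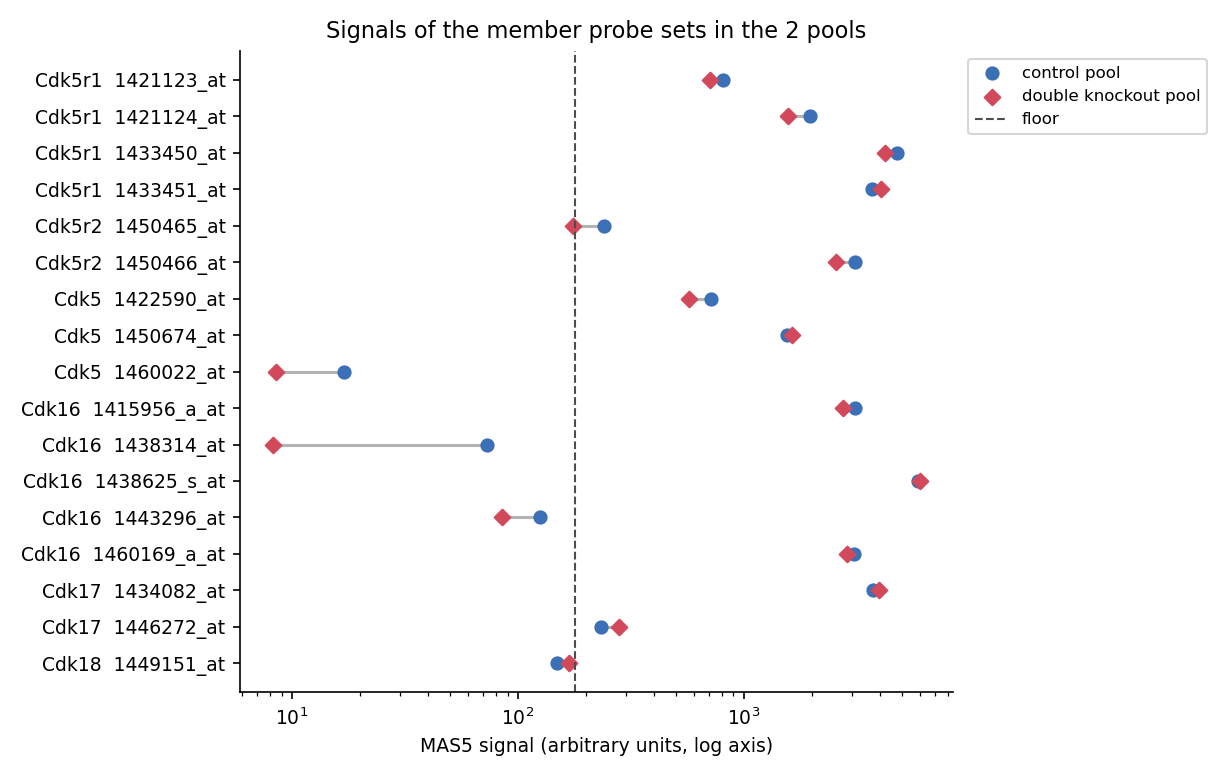
Signals of the 17 probe sets of the 6 genes in the control-labelled pool (circles) and the knockout-labelled pool (diamonds), on a log axis in arbitrary units, with a dashed line at the floor of 178.9. The signals of each bright probe set lie close together in the 2 pools, and the 4 probe sets wholly left of the line were not used for differences.

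The activators had the lowest values among the 5 measured genes. Cdk5r1, which encodes p35, was lower on 3 of its 4 probe sets, and Cdk5r2, which encodes p39, was lower on both of its probe sets. Over the 5 bright activator probe sets the differences ran from -0.32 to 0.13 with a median of -0.20, and 4 of the 5 were lower. Among all 18877 bright named probe sets 49.1% were lower and 50.9% higher, around a median of 0.0031. By brightest probe set, Cdk5r2 was the only member past 1.2-fold in either direction. Probe sets 1422590_at of Cdk5 and 1421124_at of Cdk5r1, not the brightest of their genes, were each 1.25-fold lower. Of the 11636 measured genes, 8.37% were at least 1.2-fold lower and 5.61% at least 1.2-fold higher. The excess of lower genes depends on the scaling. There were 974 lower and 653 higher here, but quantile normalization gave 788 and 777, and loess centring 835 and 733. No member passed 1.5-fold, where 0.773% of genes were lower and 0.37% higher.

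Cdk5r1 was read by 4 probe sets, all bright in both pools. The brightest, 1433450_at, read 4783.1 in the control-labelled pool and 4224.6 in the knockout-labelled pool, a difference of -0.18. Probe set 1421124_at read 1955.9 and 1570.1, a difference of -0.32, and 1421123_at read 810.2 and 706.3, a difference of -0.20. The remaining probe set, 1433451_at, went the other way, from 3691.6 to 4054.2, a difference of 0.13. The mean over the 4 was -0.14 ± 0.19 (SD), so the spread between probe sets of Cdk5r1 was larger than its mean difference.

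The 4 probe sets of Cdk5r1 form 2 pairs, and each pair is annotated to 1 sequence. Which part of that sequence each probe set reads was not analysed here. The pair 1421123_at and 1421124_at went the same way, with a gap of 0.12 log2 between their differences. The pair 1433450_at and 1433451_at went opposite ways, with a gap of 0.31. Over 3030 such pairs on these arrays, in 2073 genes, the median gap was 0.13 and 43.4% of pairs went opposite ways. A gap at least as large as that of the second pair was found in 14.9% of pairs.

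By brightest probe set, Cdk5r2 showed the largest difference of the 5 measured genes. Its bright probe set, 1450466_at, read 3095.9 in the control-labelled pool and 2548.4 in the knockout-labelled pool, 1.22-fold lower, a difference of -0.28. That is 1.57 times the pooled spread between probe sets. The dimmer probe set, 1450465_at, read 239.5 and 175.8, and since the second value was just under the floor it was at least 1.34-fold lower. Both probe sets of Cdk5r2 thus read lower in the same pool, but only 1 of them was bright, so there is no spread between its own probe sets to set beside the difference.

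The DNA upstream of Cdk5r2 is shown because this gene had the largest difference by brightest probe set. Another reason is that SRF, the partner of the deleted coactivators, binds the CArG box. The 250 bases before the transcription start lie at chr1:74854779-74855028 on the plus strand (RefSeq, GRCm38.p6). Capitals mark the matches found on either strand.
Cdk5r2 upstream: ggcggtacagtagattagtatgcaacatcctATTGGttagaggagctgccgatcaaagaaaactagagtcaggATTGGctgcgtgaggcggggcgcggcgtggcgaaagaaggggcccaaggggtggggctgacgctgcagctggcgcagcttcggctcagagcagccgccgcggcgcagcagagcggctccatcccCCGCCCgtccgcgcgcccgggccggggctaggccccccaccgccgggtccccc
The motifs searched on both strands were the CArG box as CCWWWWWWGG, where W is A or T, and the CCAAT box by its letters CCAAT. The others were the Sp1 site GGGCGG, the ETS site CCGGAAG and the AP-1 site TGACTCA. Sites that differ from these letters were not counted. The window of Cdk5r2 held 0 CArG boxes, 2 copies of CCAAT, both on the minus strand and so written ATTGG, and 1 copy of GGGCGG, written CCGCCC. None of the matches overlapped another motif. Of 32851 upstream windows of the same length, 1.47% held a CArG box, 33.8% CCAAT and 32.7% GGGCGG. The upstream sequence was 68.8% G and C.

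Cdk5 itself gave readings of opposite direction. Its brightest probe set, 1450674_at, read 1550.7 in the control-labelled pool and 1636.5 in the knockout-labelled pool, a difference of 0.074. Probe set 1422590_at read 714.9 and 573.2, 1.25-fold lower, a difference of -0.32. The third, 1460022_at, read 17.0 and 8.5, under the floor in both pools. The mean over the 2 bright probe sets was -0.12 ± 0.28 (SD), so the direction for Cdk5 depends on the probe set.

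The 2 bright probe sets of Cdk5 are annotated to 1 sequence, and their differences were 0.40 log2 apart. A gap at least that large was found in 8.84% of the 3030 pairs. The SD between the probe sets of Cdk5 was reached or passed by 10.4% of the 4858 genes with at least 2 bright probe sets. The 3 genes with signals nearest to those of the brightest Cdk5 probe set, by distance in log2 signal over the 2 arrays, were Rims2, a presynaptic scaffold, at 0.00074, Rchy1, a ubiquitin ligase, at 0.0026 and Egln1, an oxygen-sensing enzyme, at 0.0078. With 2 arrays this likeness means only that both signals were alike.

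**Figure D2:**
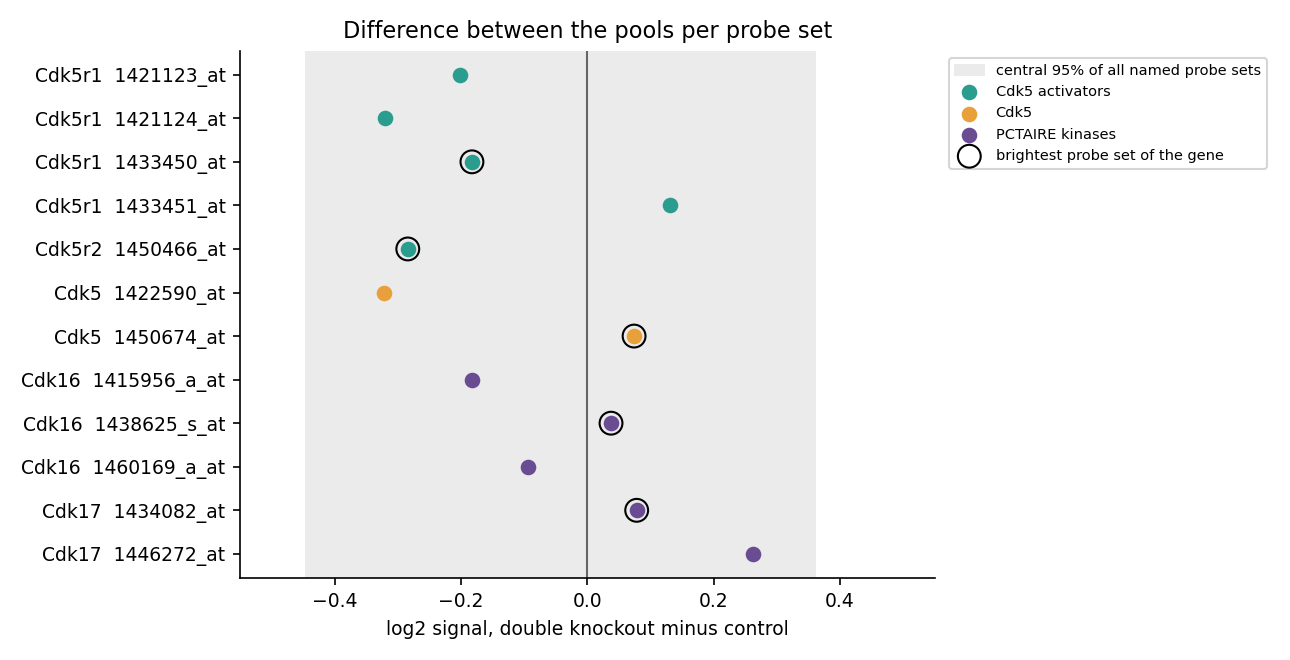
Differences in log2 signal, double knockout minus control, of the 12 bright probe sets, coloured by the role of the gene, with a ring around the brightest probe set of each gene and grey for the central 95% of all named probe sets, from -0.45 to 0.36. All 12 lie inside the grey range, and the probe sets of Cdk5r1, Cdk5 and Cdk16 lie on both sides of 0.

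The PCTAIRE kinases showed no common direction. Their 5 bright probe sets were split 2 lower and 3 higher, and ran from -0.18 to 0.26 around a median of 0.037. Cdk16 was lower on 2 of 3 probe sets and Cdk17 higher on 2 of 2, while Cdk18 was not measured. Under the reported setting all of these differences were under 1.2-fold. The highest, that of 1446272_at of Cdk17, passed 1.2-fold without centring (0.266), after quantile normalization (0.34) and after loess centring (0.33). With the pseudocount it was 0.15.

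Cdk16, also written Pctk1 or PCTAIRE-1, was read by 5 probe sets, of which 3 were bright. The brightest, 1438625_s_at, read 5882.2 in the control-labelled pool and 6052.4 in the knockout-labelled pool, a difference of 0.037. Probe set 1415956_a_at read 3119.7 and 2754.6, a difference of -0.18, and 1460169_a_at read 3061.0 and 2874.9, a difference of -0.094. The mean over these 3 was -0.080 ± 0.11 (SD), opposite in sign to the brightest one and smaller than its own spread. The 2 lower probe sets are annotated to 1 sequence and their differences were 0.089 log2 apart.

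The other 2 probe sets of Cdk16 were under the floor in both pools. Probe set 1438314_at read 72.9 and 8.2, and 1443296_at read 125.6 and 84.7. No fold is given for values under the floor. All 3 bright probe sets of Cdk16 carry a suffix (_s_at or _a_at), which Affymetrix uses for probes shared by several transcripts or transcript variants, so no value of Cdk16 remained when such probe sets were left out.

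The upstream sequence of Cdk16 is shown for comparison with that of Cdk5r2, as the PCTAIRE kinase with the most probe sets. RefSeq gives 2 starts for Cdk16, and the 250 bases before the first lie at chrX:20687704-20687953 on the plus strand (GRCm38.p6). Capitals again mark matches to the motifs listed above.
Cdk16 upstream: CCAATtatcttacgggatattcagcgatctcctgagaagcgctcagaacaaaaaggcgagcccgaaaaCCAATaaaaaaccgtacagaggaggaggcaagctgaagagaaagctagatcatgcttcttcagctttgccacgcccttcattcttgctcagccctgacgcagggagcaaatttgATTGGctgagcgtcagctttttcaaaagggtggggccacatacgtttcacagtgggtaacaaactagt
This window held 3 copies of CCAAT, 2 on the plus and 1 on the minus strand, and 0 CArG boxes. It was 48% G and C, against 68.8% upstream of Cdk5r2. Upstream windows were matched for 3 of the 6 members, Cdk5r2, Cdk16 and Cdk18, in 4 windows. None of the 4 held a CArG box, CCGGAAG or TGACTCA, and CCGGAAG was found in 6.91% and TGACTCA in 4.46% of all windows. The window of Cdk18 held 1 copy of CCAAT, and the window before the other Cdk16 start held none of the motifs. These counts say only which letters these windows hold.

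Cdk17, also written Pctk2, was the only member whose bright probe sets were all higher. Its brightest probe set, 1434082_at, read 3735.4 in the control-labelled pool and 3953.3 in the knockout-labelled pool, a difference of 0.078. The dimmer 1446272_at read 232.3 and 279.4, a difference of 0.26. The mean over both was 0.17 ± 0.13 (SD). Both signals of the dimmer probe set lay close above the floor.

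Cdk18, also written Pctk3, had a single probe set, 1449151_at, which read 149.3 in the control-labelled pool and 168.4 in the knockout-labelled pool. Both values were under the floor. Its level in the newborn cortex was therefore bounded by the floor in both pools, and no difference is given.

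Set among all genes, the 5 measured members were ordered Cdk5r2, Cdk5r1, Cdk16, Cdk5 and Cdk17 from the lowest difference to the highest. The differences of Cdk16, Cdk5 and Cdk17 were 0.037, 0.074 and 0.078, less than the pooled spread between probe sets, and do not separate from one another. The median of the 5 genes was 0.037, beside 0.011 over all 11636 measured genes, and 3 were higher and 2 lower, where 52.9% of all genes were higher and 47.1% lower. Averaging the bright probe sets of each gene gave a median of -0.12, with 4 genes lower and 1 higher, and leaving out the suffixed probe sets gave -0.054. Among the 11014 genes whose brightest probe set reached the floor in both pools, 6.54% had a lower difference than Cdk5r2 and 13.5% a lower one than Cdk5r1.

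The spread of differences narrows as signals become brighter, and the members are bright. A comparison with genes of similar brightness was added after the values were seen. Among the 1376 genes whose mean log2 signal lay within 0.5 of that of Cdk5r2, the differences had an SD of 0.12, and 1.45% were lower than Cdk5r2. Among the 828 genes around Cdk5r1 the SD was 0.11, and 2.90% were lower. That share rests on 1433450_at alone, while 1433451_at, annotated to the same sequence, was higher by 0.13. For Cdk5, Cdk16 and Cdk17 the shares of neighbours with a lower difference were 63.5%, 48.4% and 65.3%, near the middle. These shares describe 2 arrays, and genes are not replicates of a condition.

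**Figure D3:**
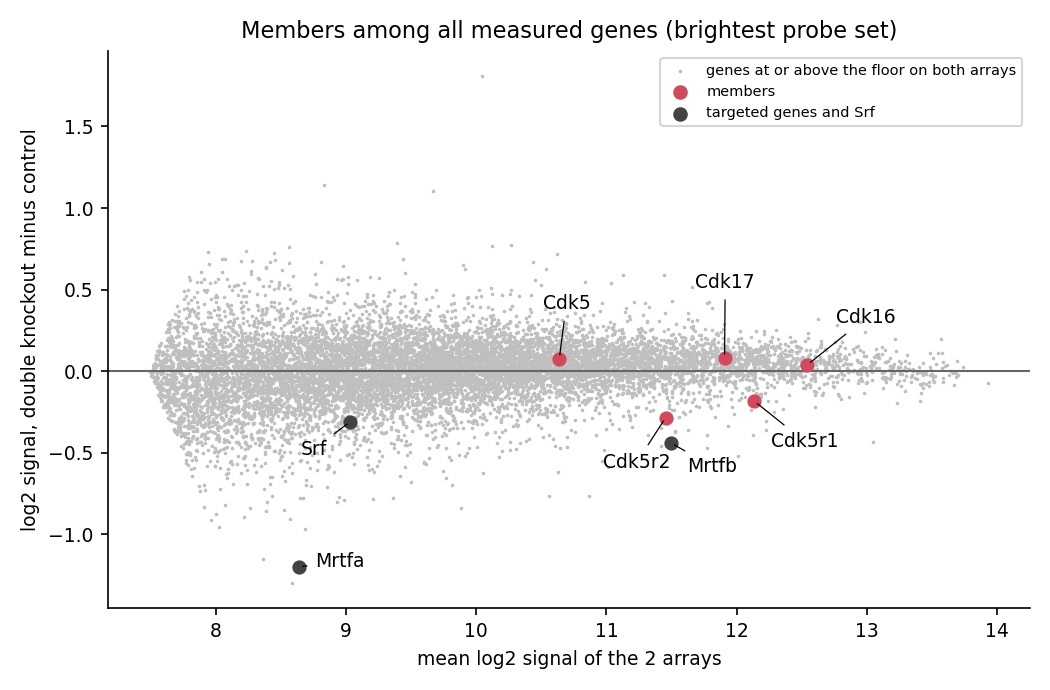
Difference in log2 signal (double knockout minus control) against mean log2 signal for the 11014 genes whose brightest probe set reached the floor in both pools, 1 point per gene from its brightest probe set, with the members in red and Mrtfa, Mrtfb and Srf in dark grey. On these probe sets Cdk5r2 and Cdk5r1 lie low in the cloud at their brightness, and Cdk5, Cdk16 and Cdk17 lie in its middle. Probe set 1433451_at of Cdk5r1, not drawn, differed by 0.13.

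The Cdk5 activators are made mainly by neurons, and neuron markers are therefore given beside them. Of 12 markers of neurons in general, 10 were higher and 2 lower in the knockout-labelled pool, with a median of 0.080, and their summed signal was 92223 in the control-labelled pool and 96540 in the other. Averaging the bright probe sets of each gene moved this median to 0.026. The cortical neuron markers had summed signals of 24521 and 23953, with Slc17a7 at -0.55 the lowest and Emx1 at 0.17 the highest. Striatal markers, of the tissue next to the cortex that can be taken along in dissection, were lower in 9 of 10 cases, with a median of -0.29 and summed signals of 15754 and 14344. Oligodendrocyte markers were lower in 8 of 10 cases, with a median of -0.29 and sums of 23418 and 19858. No marker measured was at a signal of 0 in either pool. Their part in the values of the activators was not tested.

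Markers of other cells moved in both directions. All 10 meningeal and fibroblast markers were higher, with a median of 0.23 and sums of 5698 and 6834, and 6 of 9 microglia markers were higher, with a median of 0.22 and sums of 7016 and 7693. Radial glia markers were split, 5 higher and 5 lower, with a median of -0.048. Astrocyte markers were split 4 and 4, with a median of 0.022 that turned to -0.0037 after quantile normalization and -0.0076 after loess centring, and 7 of 9 interneuron markers were higher, with a median of 0.094, or 0.0067 when averaged over probe sets. Endothelial markers had a median of -0.10 over 8 genes, which turned to 0.084 with a floor at the 75th percentile and to 0.016 without suffixed probe sets. Choroid plexus markers were at -0.15 over 4 genes, or 0.035 with that floor. Thalamic and hypothalamic markers were at -0.0055 over 5 genes, or 0.092 with that floor, and the radial glia median turned to 0.012 with it. All 4 blood markers analysed were under the floor. Their part in the members' values was not tested.

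Substrates of Cdk5 differed in both directions. Of 36 listed substrates 31 were measured, of which 20 were higher and 11 lower. Their median was 0.041, beside 0.011 for all genes. At 1.2-fold 2 were higher and 3 lower, or 6.45% and 9.68% of those measured, near the shares of all genes, 5.61% and 8.37%, and none passed 1.5-fold. The 3 lower ones were Axin1, a scaffold of Wnt signalling, at -0.37, and the neurofilament subunits Nefm and Nefh at -0.36 and -0.31. Each of these 3 rested on 1 bright probe set.

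The 2 higher substrates were Dcx and Trio. Dcx, doublecortin, a microtubule-binding protein of migrating neurons, read 2505.4 in the control-labelled pool and 3383.4 in the knockout-labelled pool, a difference of 0.43, and its 4 probe sets were all higher with a mean of 0.34 ± 0.14 (SD). Trio had a difference of 0.42 on the brightest probe set and of 0.15 ± 0.24 (SD) over 3. The transcript levels of substrates say nothing of their phosphorylation, which was not measured.

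Partners of Cdk5 and the calpain system had a median of -0.070 over 12 of 13 listed genes, with 5 higher and 7 lower. The largest difference was that of Capn1, a calpain, one of the proteases that cleave p35 to the longer-lived p25. Capn1 read 214.0 in the control-labelled pool and 291.6 in the knockout-labelled pool, 1.36-fold higher on 1 probe set close to the floor. Capn2, another calpain, differed by 0.15. Cdk5rap3, a Cdk5 activator-binding protein, differed by -0.23, and the cyclins Ccne1 and Ccnd1 by -0.18 and -0.15, with both probe sets of each lower. A floor at the 75th percentile turned the median to 0.0076.

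Partners of the PCTAIRE kinases hardly differed. All 9 listed genes were measured, 3 higher and 6 lower, with a median of -0.018 and a range from -0.094 to 0.091. Ccnyl1, a cyclin Y relative, differed by 0.091. The 14-3-3 genes Ywhag, Ywhaz, Ywhaq and Ywhae, whose proteins bind phosphorylated partners, differed by -0.094, -0.064, -0.059 and -0.037 where each was brightest. Averaged over their bright probe sets, Ywhag, Ywhaz and Ywhae were above 0, at 0.0036, 0.044 and 0.032, and the median of the list was then 0.032.

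The other cyclin-dependent and CDK-like kinases had a median of 0.061 over 17 of 20 listed genes, with 11 higher and 6 lower. Cdk1, the kinase that drives mitosis, read 424.9 in the control-labelled pool and 304.5 in the knockout-labelled pool, 1.40-fold lower on its only bright probe set, and was the only one at least 1.2-fold lower. Cdk12, a kinase of RNA polymerase II, was the only one at least 1.2-fold higher, at 0.40, but its 2 probe sets had a mean of -0.058 ± 0.65 (SD). Cdk7, which activates other CDKs, differed by 0.26, Cdk9, which releases paused polymerase, by 0.16 and Cdk10 by 0.15.

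Cyclins and CDK inhibitors had a median of -0.00086 over 19 of 27 listed genes, or 0.0029 without centring, with 9 higher and 10 lower. Past 1.5-fold, Cdkn1a, the inhibitor p21, was 1.73-fold higher and Ccnj, a cyclin, 1.52-fold higher. Cdkn1c, the inhibitor p57, read 309.9 in the control-labelled pool and 187.7 in the knockout-labelled pool, 1.66-fold lower. Each of these 3 rested on 1 bright probe set. Ccnk, the cyclin partner of Cdk12, differed by -0.30 and Ccna2, a mitotic cyclin, by 0.20.

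**Figure D4:**
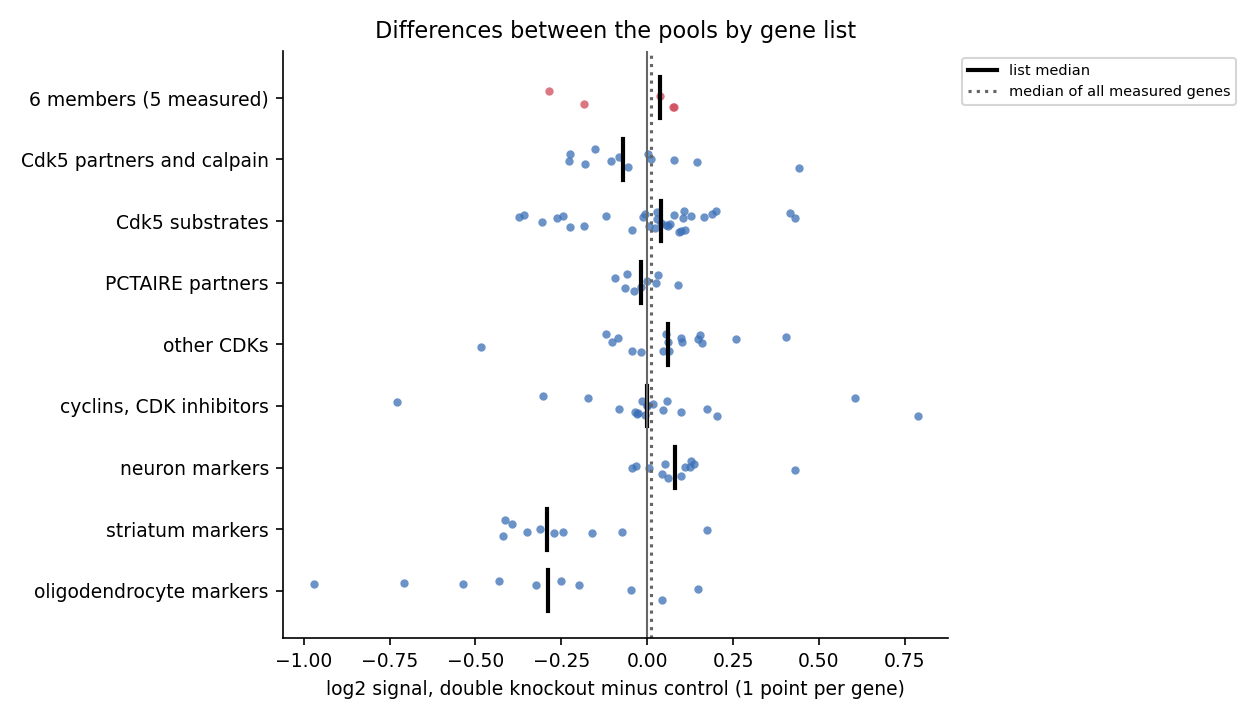
Differences in log2 signal (double knockout minus control) of the measured genes of 9 lists, 1 point per gene, with a black bar at each list's median and a dotted line at the median of all measured genes, 0.011. Cdk5r2 and Cdk5r1 are the 2 members left of 0, and the medians of the Cdk5 and PCTAIRE lists lie between -0.070 and 0.041, while those of the striatum and oligodendrocyte markers are both at -0.29.

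The order of the members depended little on scaling and more on the choice of probe set. Over 10 settings, the reported one and 9 alternatives, Cdk5r2 ran from -0.32 to -0.27 and Cdk5r1 from -0.21 to -0.14. Of the 9 alternatives, 5 left the value of Cdk5r2 as it was, since its bright probe set is far above every floor, carries no suffix and is the only bright one, so 4 bear on it. For Cdk5r1 and Cdk17, 4 alternatives left the value as it was and 5 changed it. Cdk17 ran from 0.044 to 0.17. Cdk5 ran from -0.12 to 0.078 and Cdk16 from -0.080 to 0.041, over 10 and 9 settings, each turning lower with the mean over probe sets and in no other. These ranges show how the same 2 arrays read under different processing and carry no error between animals.

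**Figure D5:**
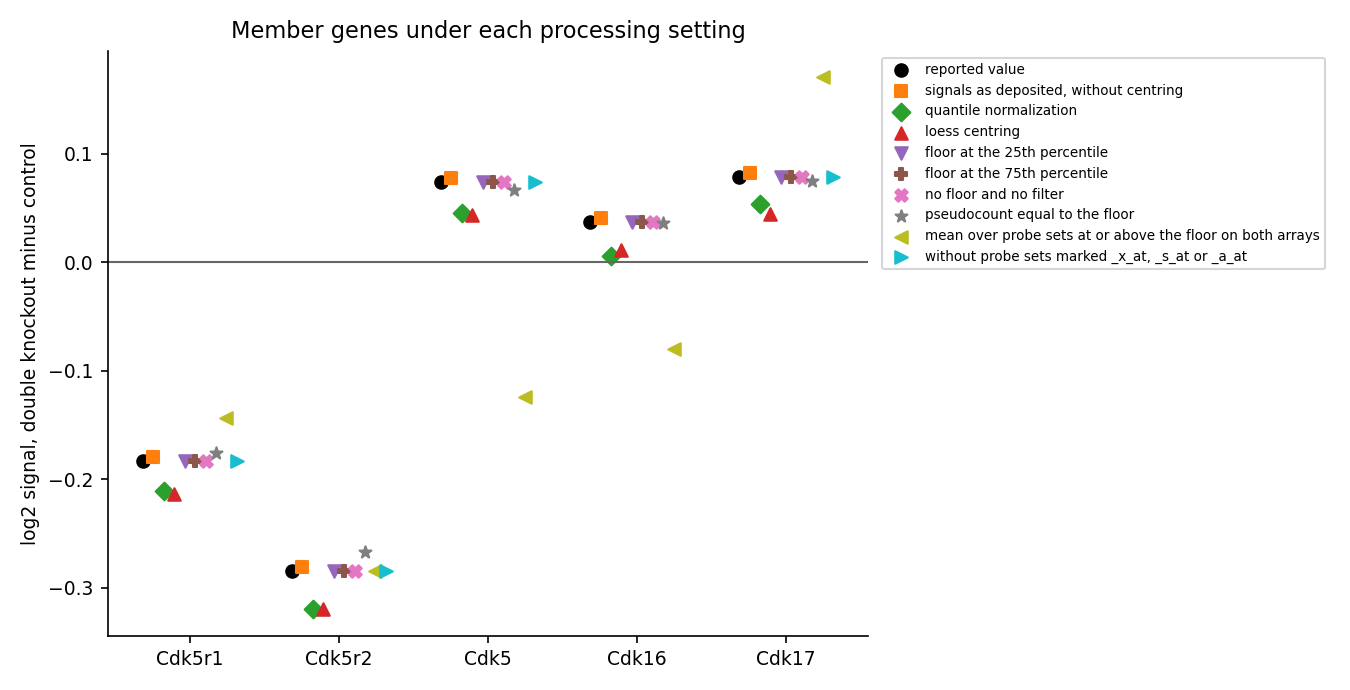
Difference in log2 signal (double knockout minus control) of the 5 measured members under the reported setting (black circles) and each processing alternative (other symbols). Cdk5r1 and Cdk5r2 lie under 0 and Cdk17 above 0 throughout, while Cdk5 and Cdk16 cross 0 with the mean over probe sets.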

How the data were processed

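The authors deposited probe set intensity values made with MAS5, according to the submitters' processing notes, on a linear scale. The MAS5 version, its target scaling and any later step are not stated there. Per the labels' protocols, 6 ug of total RNA was labelled per pool. Of 45101 probe sets, 64 controls were set aside. Of the rest, 34945 name 1 gene, 932 several and 9160 none in the platform annotation, and 99.4% of the Entrez identifiers of those naming 1 gene matched RefSeq (GRCm38.p6, used for names). Probe sets with several genes or none were not used.

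The tools were numpy 2.4.6, statsmodels 0.14.6 and pandas 2.3.3 in Python 3.11.15, with matplotlib 3.10.9 for the plots. Both arrays were centred on the median log2 difference of bright probe sets, a shift of 0.0037, and signals under the floor were set to it. A gene counts as measured if any of its probe sets reached the floor in 1 pool or both. The centring step was tested on simulated data with planted changes larger than any difference of the members. All planted changes were in probe sets well above the floor, so the floor step was not tested. The choice and averaging of probe sets were not simulated either. With 1 array per group no test could be made, and the number of arrays limits the precision.

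The 6 members and the 6 pathway and 13 marker lists were chosen with earlier results of these data known. The named genes are the members, Mrtfa, Mrtfb, Srf and Myocd, up to 5 genes per pathway list that are bright in both pools and differ most in size, any pathway-list gene past 1.5-fold, and the 3 genes nearest to Cdk5. The cortical markers Slc17a7 and Emx1 were chosen after their values were seen. Alternatives were signals without centring, quantile normalization, loess centring (span 0.3), a lower floor (25th percentile) or a higher one (75th), no floor, a pseudocount equal to the floor, the mean over probe sets, and no probe sets with the suffixes _x_at, _s_at or _a_at.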

Additional observations from a re-analysis of the deposited data

How the results depend on the processing

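No paired analysis was possible because each group has 1 array and the labels give no replicate numbers. With the mean over probe sets Cdk5 was at -0.12, the median of the members at -0.12 and that of the other CDKs at 0.016. The median of Mrtfa, Mrtfb and Srf was then -0.33, beside -0.44 under the reported setting. Without the suffixed probe sets the median of the members was -0.054, Cdk16 then being unmeasured. With the floor at the 75th percentile the median of the Cdk5 partners was 0.0076. That of Mrtfa and Mrtfb was -0.23, Srf then being under the floor. The knockout-labelled signal of Mrtfa, 262.4, was then set to that floor, 595.9, which shrank its difference. Cdk5r2 was at least 1.2-fold lower under each of the 4 alternatives that changed its value, at -0.32 after quantile normalization and loess centring, -0.28 without centring and -0.27 with the pseudocount. The count of all genes at least 1.2-fold lower was 974, but 2563 with the floor at the 25th percentile, 226 at the 75th, 4153 with no floor and 533 with the pseudocount, and those at least 1.2-fold higher numbered 653, 1154, 251, 1947 and 338. At 1.5-fold the counts were 90 lower and 43 higher, against 666 and 186, 10 and 11, 1874 and 742, and 28 and 20 in the same order. With quantile normalization 70 and 66 passed 1.5-fold, and with the mean over probe sets 60 and 31. At 1.2-fold quantile normalization gave 788 lower and 777 higher. Averaged over probe sets, the neuron marker median was 0.026. The cause was not tested. Dim signals limit Cdk18 and the dimmer probe sets of Cdk5, Cdk5r2 and Cdk16.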
